A study of Mus musculus with 40 samples.

Results

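Hyou1, Nucb2 and the genes whose symbol begins with Pdia were examined across the duodenum of male, wildtype B6C3F1 mice, a hybrid laboratory strain, given hexavalent chromium, captan or folpet. The members were the genes whose probe is written in the deposited counts as HYOU1 or NUCB2 or with a symbol that starts with PDIA, and 4 of 2756 genes met this rule, Hyou1, Nucb2, Pdia5 and Pdia6, with 1 probe each out of 3045. All 4 probes were among the 2541 probes that passed the filter on low counts. Hyou1 and Nucb2 were chosen by their measured differences from control in earlier results of these data, Hyou1 in folpet 6000 ppm and Nucb2 in captan 6000 ppm, so their differences from control are given with a standard error and without a test. Pdia5 and Pdia6 came in through their names.

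RNA was taken from fixed, paraffin-embedded duodenum scraped off slides and was counted with TempO-Seq. In this assay paired short probes on neighbouring stretches of a transcript are joined, amplified and then sequenced. Exposure lasted 28 days. Groups of 7 libraries received Cr(VI) at 180 ppm in the drinking water, captan at 6000 ppm in the diet, captan at 12000 ppm, folpet at 6000 ppm or folpet at 16000 ppm, and 5 libraries came from control mice. Captan and folpet are fungicides built on an imide whose nitrogen bears a trichloromethylthio group, and folpet has an aromatic ring where the ring of captan is partly saturated. The labels do not say that each library is a separate mouse, so the p-values measure only the spread between these libraries, which may be technical. All groups share the strain and the sex, and no genetic change is named in any of them.

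The 4 genes encode proteins of the secretory pathway, in which new proteins enter the endoplasmic reticulum (ER), are folded and paired at their cysteines, and pass to the Golgi. Hyou1 encodes a large ER chaperone related to Hsp70, also called GRP170. Pdia5 and Pdia6 encode ER protein disulfide isomerases, which form and rearrange disulfide bonds. Nucb2 encodes a calcium-binding protein of the ER and Golgi from which the peptide nesfatin-1 can be cut. When unfolded proteins build up, the unfolded protein response raises many ER chaperones through the factors ATF6, XBP1 and ATF4. Digestive enzyme-secreting acinar cells of the pancreas, which lies against the duodenum, have an unusually large ER.

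A classical binding site of the unfolded protein response is the ER stress response element (ERSE), CCAAT and CCACG held 9 bases apart. Promoter sequences from RefSeq on GRCm38.p6, reaching 250 bases before to 50 bases after the annotated start, were found for 3 of the 4 genes, Nucb2, Pdia5 and Pdia6. ERSE was searched on both strands as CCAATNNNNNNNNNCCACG and was found in the promoter of Pdia6 and in neither of the other promoters. Across 32851 mouse promoters of the same length 0.119% held a match, and 10 of the 2044 measured genes with a RefSeq promoter did. The 250 bases before the start are shown for Pdia6, whose ERSE match is in capitals, and for Nucb2, in which no searched motif was found, both on the plus strand.
Pdia6 chr12:17266339-17266588: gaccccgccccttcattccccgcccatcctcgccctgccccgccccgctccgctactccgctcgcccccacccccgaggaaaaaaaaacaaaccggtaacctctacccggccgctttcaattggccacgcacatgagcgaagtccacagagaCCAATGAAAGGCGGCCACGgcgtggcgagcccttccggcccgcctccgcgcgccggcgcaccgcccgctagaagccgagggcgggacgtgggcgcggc
Nucb2 chr7:116504119-116504368: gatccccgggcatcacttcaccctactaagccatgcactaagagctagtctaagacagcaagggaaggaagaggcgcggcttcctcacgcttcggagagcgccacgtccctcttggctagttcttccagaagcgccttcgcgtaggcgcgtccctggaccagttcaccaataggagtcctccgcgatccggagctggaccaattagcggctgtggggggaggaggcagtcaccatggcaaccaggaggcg

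Of the 10 measured genes with an ERSE match, 6 are ER genes, and their sites are shown because they put Pdia6 beside the best-known ER chaperones. Each site is written so that CCAAT comes first, with the 2 fixed ends in capitals, and Hsp90b1 holds 2 sites.
Pdia6 chr12:17266491-17266509: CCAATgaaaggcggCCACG
Hspa5 chr2:34772025-34772043: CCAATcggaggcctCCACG
Hsp90b1 chr10:86705533-86705551: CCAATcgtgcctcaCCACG
Hsp90b1 chr10:86705638-86705656: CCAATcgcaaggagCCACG
Calr chr8:84847075-84847093: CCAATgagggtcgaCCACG
Canx chr11:50325800-50325818: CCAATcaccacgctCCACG
Creld2 chr15:88819520-88819538: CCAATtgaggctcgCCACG

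The sites of Pdia6, Hspa5, Calr and the first of Hsp90b1 are on the plus strand, and those of Canx, Creld2 and the second of Hsp90b1 are on the minus strand. Further motifs were searched on both strands in the same way. ERSE-II, ATTGGNCCACG, was in 0.0365% of all promoters, the XBP1 motif TGACGTGG in 0.676% and the ATF4-type motif TGATGNAA in 3.97%, and none was found in the Nucb2, Pdia5 or Pdia6 promoter. A match is only a stretch of letters, and no binding was measured.

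Each library held between 1763440 and 7904819 counts. The library's trypsin share, the percentage of its counts from the trypsin genes Prss1 and Gm5771, had a median of 0.536% in Cr(VI), 0.0233% in captan 6000 ppm, 0.00125% in captan 12000 ppm, 0.0206% in folpet 6000 ppm, 0.0305% in folpet 16000 ppm and 0.0864% in control libraries. In 5 libraries of captan or folpet no Prss1 or Gm5771 count was found. This allows a share of up to 8.48e-05%, a limit that covers counting error only. The mean share differed from control by 0.694 points in Cr(VI) (adjusted p = 0.0331), by -0.0501 points in captan 6000 ppm (adjusted p = 0.0331) and by -0.0628 points in captan 12000 ppm (adjusted p = 0.019). In folpet it differed by -0.0315 points at 6000 ppm (adjusted p = 0.176) and by -0.0389 points at 16000 ppm (adjusted p = 0.0331). These were exact 2-sided permutation tests over libraries, adjusted over the 5 comparisons. The call was lost in Cr(VI) without any 1 control library (adjusted p up to 0.0682) and in captan 6000 ppm without control replicates 2, 4 or 5 (up to 0.0682). It was lost in folpet 16000 ppm without exposed replicates 2 to 7 or control replicates 2, 4 or 5 (up to 0.0703, exact permutation). The wider acinar share, the percentage of counts from 20 genes of pancreatic acinar cells, ranged from 4.92% to 82.2% in Cr(VI), 1.22% to 35.0% in captan 6000 ppm, 1.33% to 54.3% in captan 12000 ppm, 1.802% to 40.3% in folpet 6000 ppm, 14.4% to 44.8% in folpet 16000 ppm and 21.2% to 77.6% in control libraries. It exceeded 50% in 7 libraries, namely Cr(VI) replicates 2, 3, 4 and 7, captan 12000 ppm replicate 7 and control replicates 4 and 5. All 20 acinar genes had counts in every group, and one of them, Zg16, is also expressed by goblet cells of the gut. Zg16 and the goblet cell gene Spdef together made up at least 1.005% of counts in captan 6000 ppm and 1.12% in captan 12000 ppm. The lowest acinar shares there were 1.22% and 1.33%, and how much of such low shares came from Zg16 was not examined. Prss2, Try4 and Try5 are among the 20 acinar genes and are left out of the trypsin share. In the libraries 6 enterocyte genes made up 1.02% to 14.3% of counts. In such bulk samples, fewer cells of a type and less RNA per cell cannot be told apart.

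Hyou1 was the most highly counted of the 4 probes, with 521 to 3805 counts per library. All levels are in CPM, counts scaled to a common library size after TMM scaling, and the lowest, median and highest library are given for groups of 7. Hyou1 lay at 291.7, 364.4 and 460.7 CPM in Cr(VI), at 284.6, 397.5 and 555.0 CPM in captan 6000 ppm and at 297.8, 355.2 and 616.0 CPM in captan 12000 ppm. The folpet libraries lay at 246.9, 293.7 and 391.7 CPM in folpet 6000 ppm and at 325.1, 390.1 and 490.1 CPM in folpet 16000 ppm. The 5 control libraries held 352.7, 569.0, 520.4, 562.2 and 469.3 CPM. The lowest control library lay below the median of 4 of the 5 exposed groups, 1 captan 12000 ppm library lay above every control library, and every exposed group overlapped the control range. In folpet 6000 ppm, 5 of 7 libraries lay below the lowest control library, against 3 of 7 in Cr(VI) and 2 of 7 in each of the other exposed groups.

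Mean Hyou1 was 366 ± 56.8 CPM in Cr(VI), 414 ± 92.3 in captan 6000 ppm, 396 ± 106 in captan 12000 ppm, 308 ± 55.3 in folpet 6000 ppm, 396 ± 60.2 in folpet 16000 ppm (SD, n = 7 each) and 495 ± 88.8 in control (SD, n = 5). In falling order the means ran control, captan 6000 ppm, captan 12000 ppm, folpet 16000 ppm, Cr(VI) and folpet 6000 ppm. Of the 5 steps between neighbours, the gap of 57.6 CPM between Cr(VI) and folpet 6000 ppm was larger than the SD of both, and the other steps were within the larger SD. The log2 difference from control was -0.44 ± 0.17 in Cr(VI), -0.26 ± 0.17 in captan 6000 ppm, -0.32 ± 0.17 in captan 12000 ppm, -0.68 ± 0.16 in folpet 6000 ppm and -0.32 ± 0.17 in folpet 16000 ppm (± SE, edgeR). Scaled by library totals alone, the difference turned positive in both captan groups, 0.09 at 6000 ppm and 0.07 at 12000 ppm, and was -0.37 in folpet 6000 ppm. That scaling moved the median of all probes by 0.32, 0.44 and 0.28 in these 3 comparisons, so Hyou1 remained below the median probe in each.

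Nucb2 was counted 7 to 205 times per library and varied widely among libraries of one group. It lay at 4.32, 27.1 and 78.4 CPM in Cr(VI), at 5.34, 8.12 and 16.9 CPM in captan 6000 ppm and at 3.66, 10.3 and 40.7 CPM in captan 12000 ppm. The folpet libraries lay at 1.70, 15.1 and 29.5 CPM in folpet 6000 ppm and at 10.01, 15.8 and 49.8 CPM in folpet 16000 ppm. The control libraries held 10.4, 25.3, 21.4, 55.7 and 136.0 CPM. Control replicate 5, with 136.0 CPM, stood above all 39 other libraries, and it was also a shallow library of 2121824 counts with an acinar share of 77.6%. The exposed groups all overlapped the control range, least so captan 6000 ppm, with 5 of 7 libraries below the lowest control library.

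Nucb2 averaged 38.7 ± 30.2 CPM in Cr(VI), 9.75 ± 4.36 in captan 6000 ppm, 15.4 ± 12.6 in captan 12000 ppm, 13.9 ± 8.58 in folpet 6000 ppm, 20.4 ± 13.4 in folpet 16000 ppm (SD, n = 7 each) and 49.8 ± 51.1 in control (SD, n = 5). The order from highest to lowest mean was control, Cr(VI), folpet 16000 ppm, captan 12000 ppm, folpet 6000 ppm and captan 6000 ppm. No neighbouring means differed by more than the larger SD of the pair. As log2 differences from control the values were -0.35 ± 0.62 in Cr(VI), -2.35 ± 0.63 in captan 6000 ppm, -1.68 ± 0.63 in captan 12000 ppm, -1.83 ± 0.63 in folpet 6000 ppm and -1.28 ± 0.62 in folpet 16000 ppm (± SE, edgeR). Without control replicate 5 they were 0.45, -1.54, -0.87, -1.02 and -0.47 in the same order of groups, so the difference of the Cr(VI) group turned positive.

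Pdia5, with 51 to 609 counts per library, lay at 38.8, 46.4 and 80.7 CPM in Cr(VI), at 34.8, 49.7 and 65.6 CPM in captan 6000 ppm and at 34.2, 44.3 and 85.1 CPM in captan 12000 ppm. The folpet libraries lay at 30.6, 42.8 and 75.8 CPM in folpet 6000 ppm and at 22.3, 44.0 and 62.4 CPM in folpet 16000 ppm. The control libraries held 75.7, 57.7, 97.4, 118.6 and 45.9 CPM. Control libraries 3 and 4 stood above every exposed library, while the other 3 control libraries lay among the exposed ones. Mean Pdia5 was 52.6 ± 14.2 CPM in Cr(VI), 50.5 ± 11.9 in captan 6000 ppm, 48.3 ± 17.7 in captan 12000 ppm, 45.0 ± 14.9 in folpet 6000 ppm, 42.9 ± 12.9 in folpet 16000 ppm (SD, n = 7 each) and 79.1 ± 29.4 in control (SD, n = 5). No step between neighbours in the order of the means was larger than the larger SD of the pair.

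Pdia5 fell in folpet 16000 ppm, by 0.89 ± 0.29 on the log2 scale (adjusted p = 0.037, edgeR's quasi-likelihood test with Benjamini-Hochberg adjustment over 2541 probes), with 7 of 7 libraries below the control mean and 5 of 7 below the lowest control library. There 12.6% of all tested probes passed at an adjusted p under 0.05, and Pdia5 was 1 of the 2 Pdia probes. The difference did not pass in the other groups, at -0.59 ± 0.29 in Cr(VI) (adjusted p = 0.245, edgeR), -0.65 ± 0.29 in captan 6000 ppm (adjusted p = 0.198), -0.72 ± 0.29 in captan 12000 ppm (adjusted p = 0.146) and -0.82 ± 0.29 in folpet 6000 ppm (adjusted p = 0.0896, edgeR). In these 4 comparisons 5.94%, 5.16%, 6.18% and 6.22% of all tested probes passed. The call in folpet 16000 ppm was lost without any 1 of 8 libraries, with adjusted p from 0.052 to 0.146 (edgeR). These were folpet 16000 ppm replicates 1, 2, 4, 6 and 7 and control replicates 1, 3 and 4. It was also lost without the 7 libraries over 50% acinar (-0.82, adjusted p = 0.095, edgeR) and with the acinar share in the fit (-0.88, adjusted p = 0.0635, edgeR).

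Pdia6 had 0 to 187 counts per library. It lay at 6.54, 12.7 and 44.3 CPM in Cr(VI), at 6.74, 16.3 and 25.7 CPM in captan 6000 ppm and at 4.15, 11.9 and 29.9 CPM in captan 12000 ppm. The folpet libraries lay at 7.89, 11.5 and 21.6 CPM in folpet 6000 ppm and at 0, 12.8 and 19.96 CPM in folpet 16000 ppm. Control libraries held 13.1, 27.7, 17.5, 43.2 and 0 CPM. The ranges of all groups overlapped. The 2 libraries at 0, folpet 16000 ppm replicate 2 and control replicate 5, allow levels of up to 0.562 and 2.70 CPM from a limit of 3 counts. Mean Pdia6 was 18.3 ± 13.3 CPM in Cr(VI), 15.4 ± 7.62 in captan 6000 ppm, 13.4 ± 8.29 in captan 12000 ppm, 14.4 ± 5.80 in folpet 6000 ppm, 11.5 ± 6.25 in folpet 16000 ppm (SD, n = 7 each) and 20.3 ± 16.2 in control (SD, n = 5). Again no neighbours were apart by more than the larger SD. The log2 differences from control ran from -0.17 ± 0.72 in Cr(VI) to -0.83 ± 0.72 in folpet 16000 ppm and did not pass in any group (adjusted p from 0.564 to 0.949, edgeR).

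**Figure D1:**
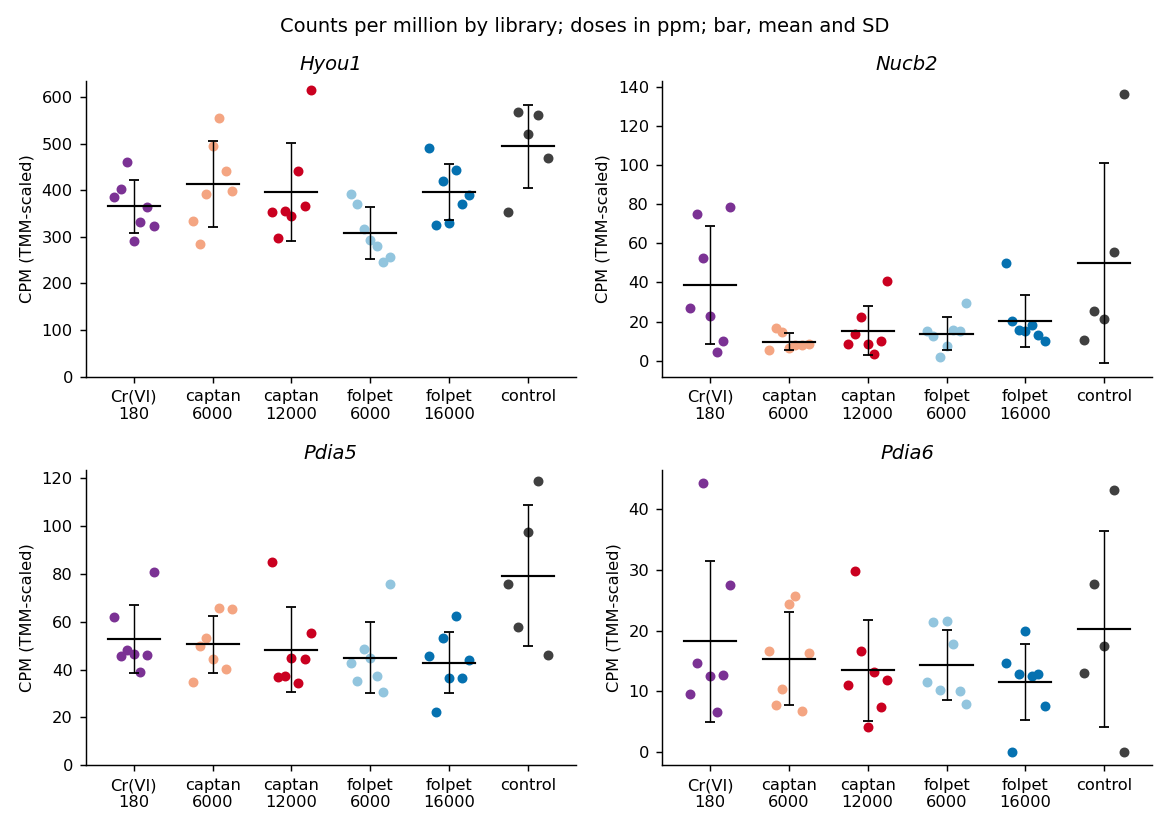
Levels of the 4 genes in every library, in CPM on a linear scale, for Cr(VI), both captan doses, both folpet doses and control; points are libraries, the long bar is the mean and the whiskers 1 SD (n = 7, control n = 5). Control has the highest mean in each panel, the Nucb2 control mean of 49.8 CPM includes the library at 136.0 CPM, and the exposed groups overlap the control range for all 4 genes.

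Hyou1 and Nucb2 were chosen for lying below control, so nothing is read from the signs of their differences. Both Pdia genes, which came in through their names, also had their highest mean in control, and all 10 of their log2 differences from control were below 0. Of all tested probes, 51.5% were below 0 in Cr(VI), 49% in captan 6000 ppm, 49.6% in captan 12000 ppm, 50% in folpet 6000 ppm and 52.3% in folpet 16000 ppm. The 5 comparisons share the same 5 control libraries, so these signs are not independent of each other.

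The exposed groups were also compared with each other. Hyou1 was chosen on its values in folpet 6000 ppm and Nucb2 on its values in captan 6000 ppm, so their differences that involve these groups are descriptions without a test. At the matched dose of 6000 ppm the captan minus folpet difference was 0.43 ± 0.15 on the log2 scale for Hyou1 and -0.52 ± 0.58 for Nucb2 (± SE, edgeR). It was 0.17 for Pdia5, with a 95% interval from -0.36 to 0.70, and 0.11 for Pdia6, with an interval from -1.19 to 1.40, and neither passed. In that comparison 0.157% of tested probes passed. With intervals this wide, in particular for Pdia6, the 2 fungicides cannot be said to act alike. Their higher doses differ, and beside each other the differences from control at captan 12000 ppm and folpet 16000 ppm were -0.32 and -0.32 for Hyou1, -1.68 and -1.28 for Nucb2, -0.72 and -0.89 for Pdia5, and -0.60 and -0.83 for Pdia6.

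Between doses, Hyou1 was 0.36 ± 0.15 higher on the log2 scale at folpet 16000 ppm than in the folpet 6000 ppm libraries it was chosen on, with 3 of 7 libraries above the highest library of the lower dose. In this step 1.73% of probes passed. From captan 6000 ppm to captan 12000 ppm the Hyou1 difference was -0.06 ± 0.15. For this step 0 probes passed in edgeR, 148 had an unadjusted p under 0.05, limma-voom called 0 and DESeq2 called 1. Nucb2 was 0.67 ± 0.58 higher at the higher captan dose and 0.55 ± 0.57 higher at the higher folpet dose (± SE, edgeR), and the lower captan dose is the one it was chosen on. Pdia5 and Pdia6 differed by -0.06 and -0.20 between the captan doses and by -0.07 and -0.32 between the folpet doses, and neither passed in either step.

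Cr(VI), given in water, was set against the higher dose of each fungicide, given in food. Nucb2 was 1.32 ± 0.58 higher on the log2 scale in Cr(VI) than in captan 12000 ppm (interval 0.18 to 2.46, adjusted p = 0.198, edgeR) and 0.92 ± 0.58 higher than in folpet 16000 ppm (adjusted p = 0.432, edgeR). Neither passed. The 3 highest Cr(VI) libraries for Nucb2, replicates 2, 3 and 7, lay above every library of both fungicide groups and had acinar shares of 67.4%, 82.2% and 71.9%. Hyou1 differed by -0.12 ± 0.15 from captan 12000 ppm and by -0.11 ± 0.15 from folpet 16000 ppm. None of the 4 genes passed in these 2 comparisons, in which 4.64% and 7.32% of tested probes did.

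Nucb2 was highest in libraries with a high acinar share. Of the 7 libraries over 50% acinar, 6 were among the 7 with the highest Nucb2. Control replicate 5 had 136.0 CPM at an acinar share of 77.6%, Cr(VI) replicate 7 had 78.4 CPM at 71.9% and Cr(VI) replicate 2 had 75.2 CPM at 67.4%. At the other end, Cr(VI) replicate 5, with an acinar share of 4.92%, had 4.32 CPM, although it came from the same group. Cr(VI) replicate 4 had 23.1 CPM at a share of 53.9%, and folpet 16000 ppm replicate 1 had 49.8 CPM at 44.8%. Other libraries departed from this order too. Captan 12000 ppm replicate 3 had 22.4 CPM at a share of 1.67%, Cr(VI) replicate 6 had 9.96 CPM at 46.3% and control replicate 1 had 10.4 CPM at 41.3%.

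Over the 7 libraries past 50% the Nucb2 median was 55.7 CPM (23.1 to 136.0), against 13.0 CPM (1.70 to 49.8) in the other 33. Hyou1 had medians of 461 and 366 CPM, Pdia5 of 48.2 and 44.8 CPM and Pdia6 of 14.7 and 12.8 CPM in the same sets, with overlapping ranges. Within groups, the slope of Nucb2 was 0.43 ± 0.08 on the log2 scale per 10 points of acinar share (± SE, edgeR, group means in the fit, 40 libraries), and leaving out each library in turn gave 0.40 to 0.46. It was 0.37 ± 0.10 without the Cr(VI) group. Without the 7 libraries over 50% it was 0.31 ± 0.16, with a wider SE. These Nucb2 slopes are descriptions without a test, since the libraries Nucb2 was chosen on are among those fitted. The slopes were 0.04 ± 0.03 for Hyou1, 0.00 ± 0.05 for Pdia5 (adjusted p = 0.994, edgeR) and 0.09 ± 0.13 for Pdia6 (adjusted p = 0.869, edgeR). For this slope 4.05% of tested probes passed, a figure that includes the acinar genes that form the share. Of the 2521 probes outside the acinar list, 3.29% passed. The slope on the acinar share was added after the data had been seen.

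**Figure D2:**
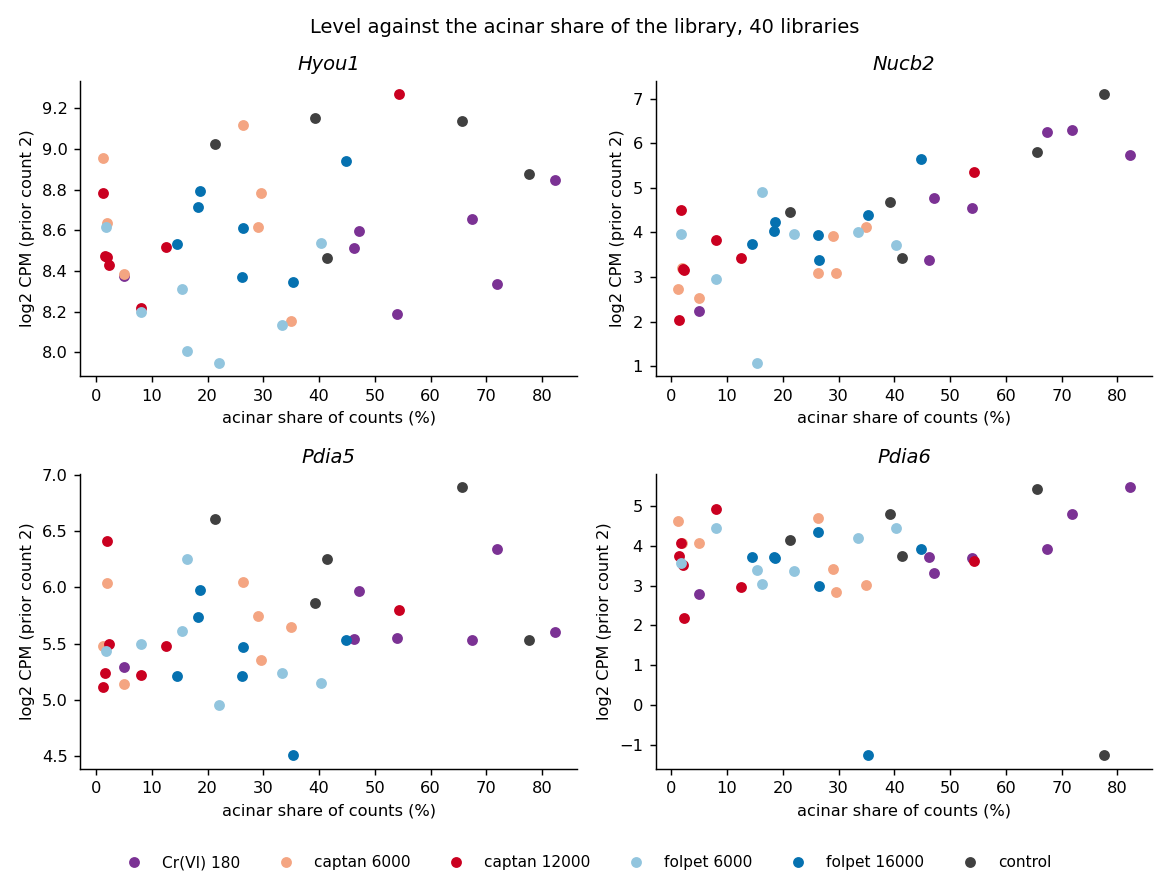
Level of each gene as log2 CPM (prior count 2) against the acinar share of the library's counts in percent, one point per library, coloured by group. Nucb2 runs upward from libraries under 10% to those over 50%, at 0.43 log2 per 10 points within groups, whereas the other panels show slopes of 0.00 to 0.09, with the 2 libraries without Pdia6 counts at the bottom of their panel.

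The trypsin share spans a much narrower range than the acinar share. Per 1 point of trypsin share, the slope was 1.71 ± 1.01 for Nucb2, -0.18 ± 0.19 for Hyou1, 0.19 ± 0.35 for Pdia5 and 0.24 ± 0.97 for Pdia6 on the log2 scale (± SE, edgeR), with an adjusted p of 0.99 for both Pdia genes. For this slope 0 of 2541 probes passed, while 139 had an unadjusted p under 0.05. Prss1 and Gm5771 made up a mean of 1.34% of acinar counts in Cr(VI), against 0.145% in control libraries. The 2 shares thus do not rank the libraries alike. Cr(VI) replicate 4 had the highest trypsin share of all, 1.89%, and 23.1 CPM of Nucb2.

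With the acinar share in the fit, the Nucb2 difference from control was -0.56 in Cr(VI), -0.66 in captan 6000 ppm, 0.16 in captan 12000 ppm, -0.09 in folpet 6000 ppm and -0.01 in folpet 16000 ppm. Without the 7 libraries over 50% it was -0.44, -0.96, -0.74, -0.43 and 0.12 in the same order. With the acinar share in the fit the Hyou1 difference was -0.46 in Cr(VI), -0.13 in captan 6000 ppm, -0.18 in captan 12000 ppm, -0.56 in folpet 6000 ppm and -0.23 in folpet 16000 ppm, and without those libraries it was -0.39, -0.20, -0.39, -0.61 and -0.26. The Pdia5 difference in folpet 16000 ppm was -0.88 and -0.82 in these 2 settings.

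**Figure D3:**
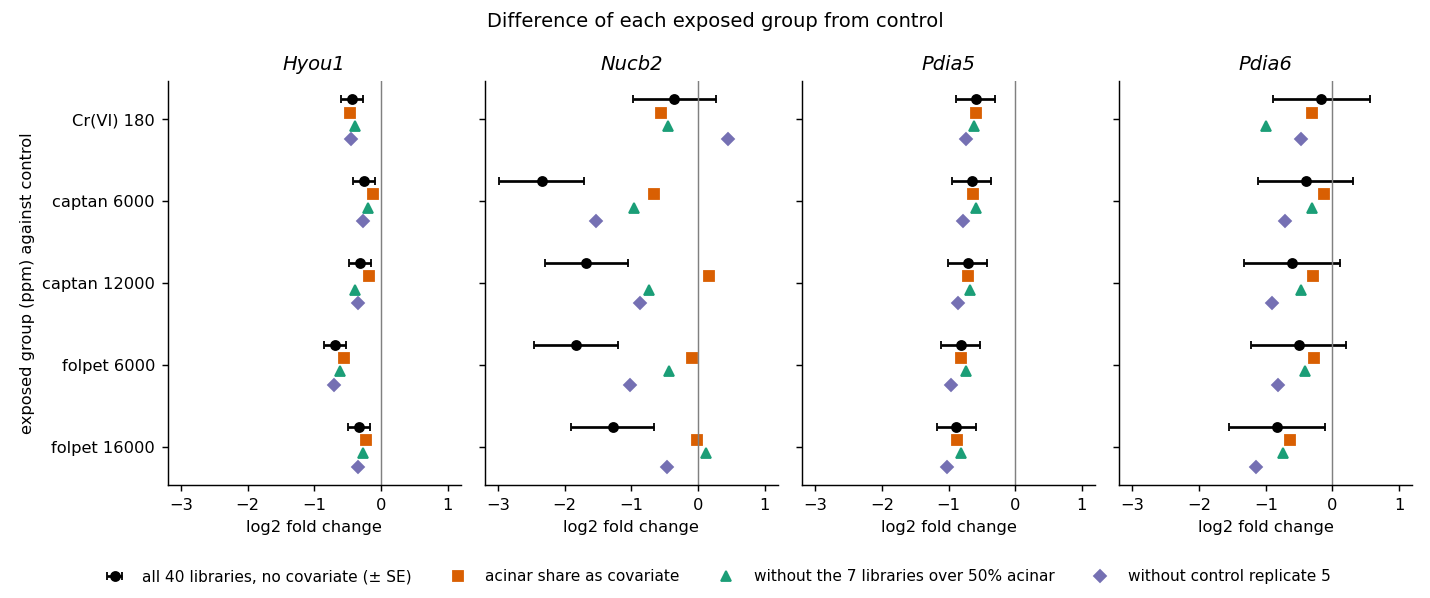
Log2 difference of each exposed group from control for the 4 genes, with the fit on all 40 libraries (circle, whiskers ± SE) and, beneath it, the fits with the acinar share as covariate, without the 7 libraries over 50% acinar and without control replicate 5. Nucb2 in captan 6000 ppm moves from -2.35 to -0.66, -0.96 and -1.54, Hyou1 in captan 6000 ppm from -0.26 to -0.13, -0.20 and -0.27, and Pdia5 in folpet 16000 ppm from -0.89 to -0.88, -0.82 and -1.02.

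Among the 40 libraries, with group means taken out, Hyou1 was most like Morf4l2 (Pearson's r = 0.617) and Cops7a (0.617), then the cystine transporter Slc7a11 (0.571), the transcription factor Maff (0.561) and the ER chaperone Hsp90b1 (0.542). Nucb2 was most like the stress-responsive factor Atf5 (r = 0.778), the secretory granule lectin Zg16 (0.744), Gabra4 (0.709), Aldh7a1 (0.692) and the translation repressor Eif4ebp1 (0.681). These 5 genes themselves had r of 0.707 to 0.941 with the acinar share, and Nucb2 had 0.713. The value of 0.941 is that of Zg16, which is itself counted in that share. Pdia5 was most like Nsun2 (0.571) and the ER lectin chaperone Canx (0.567), and Pdia6 was most like Cox7a1 (0.77), for which the rank correlation was 0.443. Between members, r was 0.42 for Pdia5 with Pdia6, 0.28 for Hyou1 with Pdia6, 0.20 for Hyou1 with Pdia5, and 0.17 or less for Nucb2 with any of them. The values for Pdia6 include the 2 libraries with 0 Pdia6 counts, folpet 16000 ppm replicate 2 and control replicate 5. Both also held the lowest Pdia5 of their groups, 22.3 and 45.9 CPM, and r without them was not computed. All correlations here are descriptions over libraries that share depth and tissue makeup.

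Of the other measured ER genes with an ERSE site, only Canx passed against control. Canx, which holds glycoproteins during folding, fell in Cr(VI), to 2653 ± 182 CPM against 3806 ± 1207 in control (SD, n = 7 and 5), which is -0.52 ± 0.14 on the log2 scale (adjusted p = 0.0171, edgeR). It also fell by 0.46 ± 0.14 in folpet 6000 ppm (adjusted p = 0.0385, edgeR), a call lost when the acinar share was a covariate (-0.33), when the 7 libraries over 50% acinar were left out (-0.28) and without any 1 of 8 libraries, the value without control replicate 4 being -0.26. The Cr(VI) call was lost without control replicate 1 or control replicate 4, the value without replicate 4 being -0.32, and also without the 7 libraries over 50% acinar (-0.38). With the trypsin share in the fit the Cr(VI) call was lost too (-0.59, adjusted p = 0.0627, edgeR). Hspa5, the main Hsp70 of the ER, ranged from -0.22 in Cr(VI) to 0.61 in both captan groups, and Calr, a lectin chaperone like Canx, from 0.04 in Cr(VI) to 0.69 in captan 6000 ppm. Hsp90b1, the Hsp90 of the ER, ranged from -0.37 in folpet 6000 ppm to -0.08 in captan 6000 ppm, and Creld2 from -1.54 in Cr(VI) to -0.95 in captan 12000 ppm. None of these 4 genes passed in any comparison with control. Hspa5 and Creld2 were low, at 26.2 and 36.9 CPM in control, with SEs of 0.44 and 0.60 in Cr(VI). With such SEs it cannot be told whether the genes with an ERSE site moved together.

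Of 50 other secretory pathway genes on the panel, in 6 lists, 49 were tested. In Cr(VI), 0 rose and 3 fell, 6.12% of the tested genes beside 5.94% of all probes. In each captan group 1 rose and 2 fell, which is 6.12% beside 5.16% of all probes at 6000 ppm and 6.18% at 12000 ppm. In folpet 6000 ppm 0 rose and 4 fell, 8.16% beside 6.22%. In folpet 16000 ppm 5 rose and 4 fell, 18.4% beside 12.6%. The median log2 difference over the 49 genes lay between -0.14 in Cr(VI) and 0.04 in folpet 6000 ppm.

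The 6 lists differed in their medians. For the 11 genes of ER chaperones and folding the median was -0.23 in Cr(VI), -0.34 in both captan groups, -0.39 in folpet 6000 ppm and -0.31 in folpet 16000 ppm, with 7 or 8 genes below 0 in each. The 4 genes of ER-associated degradation had medians of 0.02 in Cr(VI), -0.49 in captan 6000 ppm, -0.52 in captan 12000 ppm, -0.35 in folpet 6000 ppm and -0.48 in folpet 16000 ppm. The 13 genes of the unfolded protein response had medians of 0.06 to 0.33. Those of ER entry and glycosylation had -0.23 to 0.15 and those of ER to Golgi and Golgi traffic -0.003 to 0.24. Calcium-binding ER and Golgi proteins had medians of -0.48 to 0.48. The medians over all tested probes were -0.05 to 0.01, and 49% to 52.3% of these probes were below 0.

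Spcs3, a subunit of the signal peptidase that trims proteins entering the ER, fell in all 5 groups. It averaged 534 ± 117 CPM in Cr(VI), 537 ± 79.7 in captan 6000 ppm, 487 ± 120 in captan 12000 ppm, 508 ± 49.99 in folpet 6000 ppm and 599 ± 102 in folpet 16000 ppm (SD, n = 7 each), against 865 ± 183 in control (SD, n = 5). Its log2 differences were -0.70, -0.69, -0.83, -0.77 and -0.53, with adjusted p of 0.00322, 0.0039, 0.000344, 0.000844 and 0.018 (edgeR). It changed by 0.07 ± 0.02 per 10 points of acinar share (adjusted p = 0.0485, edgeR). With the acinar share in the fit the Spcs3 calls in captan 6000 ppm (-0.45, adjusted p = 0.112, edgeR) and in folpet 16000 ppm (-0.36, adjusted p = 0.12, edgeR) were lost. The Spcs3 call in folpet 16000 ppm was also lost without the 7 libraries over 50% acinar (-0.38) and without control replicate 4 (-0.41). A fit on each exposed group and control alone lost the calls in Cr(VI), captan 6000 ppm and folpet 16000 ppm. Rpn1, of the enzyme that attaches N-linked glycans, fell by 0.64 ± 0.13 in Cr(VI) (adjusted p = 0.00166, edgeR), a call lost without the 7 libraries over 50% acinar (adjusted p = 0.0685, edgeR).

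Ero1lb, the ER oxidase that hands disulfide bonds to the protein disulfide isomerases and is abundant in the pancreas, fell in both captan and both folpet groups, with log2 differences of -2.50 ± 0.68 in captan 6000 ppm (adjusted p = 0.0205, edgeR), -2.72 ± 0.68 in captan 12000 ppm (adjusted p = 0.0112, edgeR), -2.60 ± 0.68 in folpet 6000 ppm (adjusted p = 0.0143, edgeR) and -2.60 ± 0.68 in folpet 16000 ppm (adjusted p = 0.00836, edgeR). It averaged 41.3 ± 26.7, 35.5 ± 51.4, 38.4 ± 18.9 and 38.3 ± 16.8 CPM in these 4 groups (SD, n = 7 each) and 234 ± 298 CPM in control (SD, n = 5). It changed with the acinar share, by 0.50 ± 0.05 per 10 points (adjusted p = 5.89e-10, edgeR). Every one of the 4 calls was lost without control replicate 5, which left differences of -1.31, -1.53, -1.41 and -1.41, and with the acinar share in the fit, which left -0.42, -0.94, -0.64 and -0.96. The captan 6000 ppm call was also lost without captan 6000 ppm replicate 7 (-2.37). Without the 7 libraries over 50% acinar the 4 differences were -1.08, -2.40, -1.16 and -1.17. Only the captan 12000 ppm call remained there (adjusted p = 0.00214, edgeR). In Cr(VI) the Ero1lb difference was -1.02 ± 0.66 and did not pass (adjusted p = 0.434, edgeR).

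Xbp1, a factor of the unfolded protein response, fell by 0.80 ± 0.24 in folpet 6000 ppm (adjusted p = 0.0347, edgeR). In folpet 16000 ppm it fell by 0.77 ± 0.24 (adjusted p = 0.0248, edgeR). It changed by 0.13 ± 0.03 per 10 points of acinar share (adjusted p = 0.00418, edgeR). A further Xbp1 probe is on the panel, and only the probe with more counts is described. Mean Xbp1 was 287 ± 86.9 and 292 ± 53.2 CPM in these folpet groups, against 499 ± 246 in control (SD). It was 321 ± 57.2 in captan 6000 ppm, 298 ± 62.5 in captan 12000 ppm and 417 ± 163 in Cr(VI), where it did not pass. Without the 7 libraries over 50% acinar the Xbp1 differences in the 2 folpet groups were -0.20 and -0.19, and neither passed. With the acinar share in the fit they were -0.35 and -0.41, and neither passed (adjusted p = 0.501 and 0.241, edgeR). Both calls were also lost in limma-voom. Leaving out 1 library also ended the call, in folpet 6000 ppm for exposed replicates 1, 4, 5 and 6 and control replicates 3, 4 and 5 (down to -0.58), and in folpet 16000 ppm for exposed replicate 5 and control replicates 4 and 5 (down to -0.55). Cebpb, another factor of this response, rose by 0.54 ± 0.18 in folpet 16000 ppm (adjusted p = 0.0412, edgeR). This call was lost without any 1 of 8 libraries, the value without control replicate 1 being 0.44, and without the libraries over 50% acinar (0.64, adjusted p = 0.0609, edgeR), and with totals outside the acinar list the value was -0.02. The Cebpb call was also lost in DESeq2 (0.45, adjusted p = 0.0598, DESeq2) and with DESeq2 size factors in edgeR (0.45, adjusted p = 0.0986, edgeR).

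Edem1, which directs misfolded glycoproteins to degradation, fell by 1.48 ± 0.42 in folpet 16000 ppm (adjusted p = 0.0153, edgeR), a call lost without control replicate 5 (-1.18). In the same group P4hb, the founding protein disulfide isomerase, rose to 1700 ± 216 CPM, against 1102 ± 297 in control (SD, n = 7 and 5), by 0.62 ± 0.16 (adjusted p = 0.00395, edgeR). The P4hb call was lost without the 7 libraries over 50% acinar (0.46, adjusted p = 0.0602, edgeR). It was also lost when reads outside the acinar list were the library size (0.11, adjusted p = 0.61, edgeR), a scaling that moved the median of all probes by -0.52.

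Genes of ER to Golgi and Golgi traffic passed in 3 groups, 1 of 9 in each captan group and 3 of 9 in folpet 16000 ppm. They were higher than control, as were 96 of 131, 118 of 157 and 201 of 320 called probes in captan 6000 ppm, captan 12000 ppm and folpet 16000 ppm. Arf1, a small GTPase that starts coat assembly on the Golgi, rose by 0.62 ± 0.18 in captan 6000 ppm (adjusted p = 0.033, edgeR), by 0.75 ± 0.18 in captan 12000 ppm (adjusted p = 0.00688, edgeR) and by 0.68 ± 0.18 in folpet 16000 ppm (adjusted p = 0.0087, edgeR). Copb2, a subunit of the COPI coat, rose by 0.73 ± 0.20 (adjusted p = 0.00936, edgeR) and the SNARE Ykt6 by 0.49 ± 0.14 (adjusted p = 0.0161, edgeR) in folpet 16000 ppm. With totals outside the acinar list both calls were lost, at 0.25 for Copb2 and -0.03 for Ykt6. The Ykt6 call was also lost without the libraries over 50% acinar (0.46) and without control replicate 5 (0.39). Arf1 changed by -0.11 ± 0.02 per 10 points of acinar share (adjusted p = 0.00418, edgeR), and its calls were lost in all 3 groups without the 7 libraries over 50% acinar, at 0.36, 0.52 and 0.42. With totals outside the acinar list the Arf1 differences were 0.29, 0.39 and 0.17, and none passed. With the acinar share in the fit they were 0.32, 0.39 and 0.47, and only the folpet 16000 ppm call remained. In captan 6000 ppm the Arf1 call was also lost without captan 6000 ppm replicates 1, 4 or 7 or control replicates 4 or 5, the value without control replicate 5 being 0.43. Scaled by library totals alone, the calls of these pathway genes were lost, except those of Ero1lb in captan 12000 ppm and both folpet groups. A fit on the exposed group and control alone, beyond the Spcs3 calls above, lost every call of Rpn1, Canx, Edem1, Xbp1, Copb2 and Cebpb. That fit also lost the calls of Ero1lb and Arf1 in both captan groups. Whether the acinar share accounts for any of these differences was not tested.

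**Figure D4:**
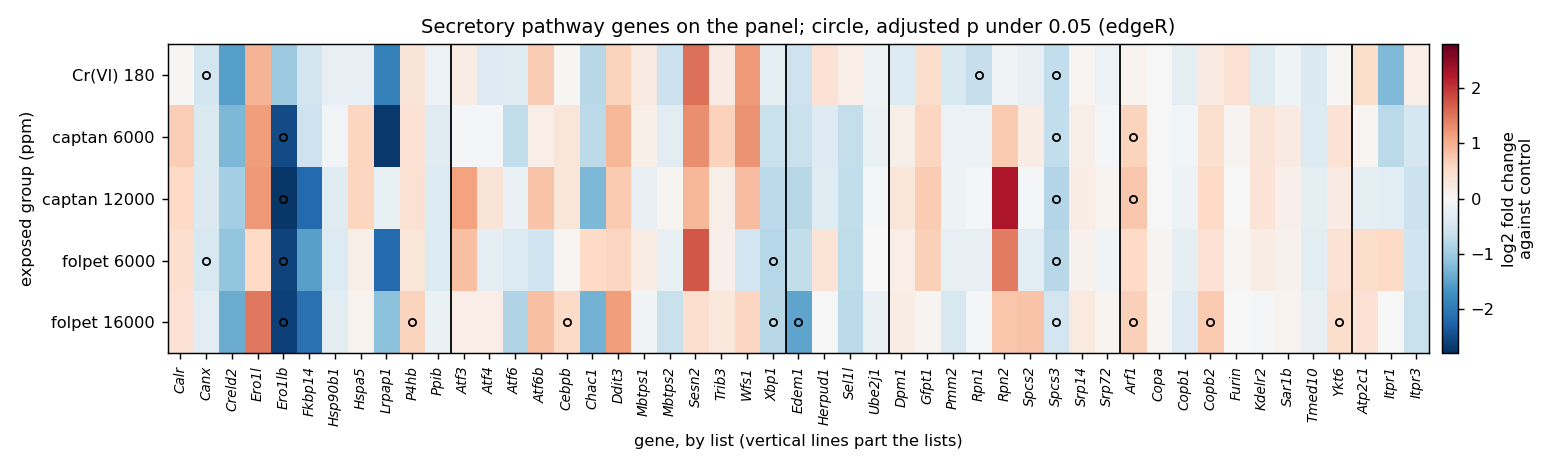
Log2 difference from control for the 49 tested secretory pathway genes (columns, parted by list) in the 5 exposed groups (rows), red higher and blue lower than control; circles mark an adjusted p under 0.05 in edgeR. Spcs3 is circled in all 5 rows, Ero1lb in the 4 captan and folpet rows, and folpet 16000 ppm has 9 circles, 5 of them on genes that rose.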

How the data were processed

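TempO-Seq counts of 40 duodenum libraries were used as deposited, as unnormalized counts for each probe in whole numbers. Per the submitters' processing notes, bcl2fastq 2.17.1.14 and Bowtie were used with the mouse build mm9, and the step of each is not given. Groups came from the labelled exposure, and replicate numbers only name libraries.

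In R 4.3.3 with edgeR 4.0.16, probes passing filterByExpr (minimum count 10, minimum total count 15) were scaled by TMM and fitted by robust quasi-likelihood with a mean for each group, tested 2-sided and adjusted by Benjamini-Hochberg over 2541 probes. A probe passed at an adjusted p under 0.05. Log2 CPM used a prior count of 2, 95% intervals are 1.96 SE, and SEs were derived from the log2 fold change and its F statistic. Slopes added a share as a covariate. Scripts were tested on simulated data. Alternatives used DESeq2 1.42.0, limma 3.58.1, other scalings, filters, covariates and left-out libraries. The member genes and all lists were chosen with earlier results of these data known. Where a pathway gene had more probes, the tested probe with most counts stood for it. Named genes beyond the members were the called pathway genes with the largest change in each direction per comparison, or holders of an ERSE site, with Spcs3, Ykt6 and Cebpb in folpet 16000 ppm added after their values were seen. Total counts limit the precision of low probes, 28.5% of all values were 0, and limits from 0 counts cover counting error only, since amplified counts are not independent molecules. The table does not give probe positions, so no probe coordinates are printed.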

Additional observations from a re-analysis of the deposited data

Results flagged for a closer look

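Of 36 groups of library values examined, 4 held a library that stood far from the rest of its group. A chance rate of about 1 group in 20 holds for independent groups. Here the trypsin genes are part of the acinar share, so 4 of 36 is not read against that rate. Pdia6 had a log2 CPM of -1.263 in folpet 16000 ppm replicate 2, where the other libraries lay from 2.987 to 4.348, and the same -1.263 in control replicate 5, where the others lay from 3.757 to 5.447. Both are libraries with 0 Pdia6 counts.

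Captan 12000 ppm replicate 7 had a trypsin share of 0.04428%, against at most 0.007102% in the other libraries of its group, and an acinar share of 54.25%, against 1.326% to 12.54%. The same library had the highest Nucb2 (40.7 CPM) and the highest Hyou1 (616.0 CPM) of its group.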

How the results depend on the processing

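No paired analysis was possible because replicate numbers only name libraries in accession order. Settings were 9 processing alternatives, the acinar share as a covariate, added after seeing the data, and leaving out each library in turn. With library totals alone, the Hyou1 difference from control was -0.75 in Cr(VI), 0.0882 in captan 6000 ppm, 0.0674 in captan 12000 ppm and -0.37 in folpet 6000 ppm; with totals outside the acinar list it was -0.61, -0.71, -1.05 and -0.86 in captan 6000 ppm, captan 12000 ppm, folpet 6000 ppm and folpet 16000 ppm. In the comparisons with control these scalings moved the median of all probes by up to 0.44 and by up to -0.52. Nucb2 moved with the acinar share in the fit, to -0.66, 0.16, -0.0866 and -0.0128 in the same 4 groups, and without the libraries over 50% acinar, to -0.96, -0.43 and 0.12 in captan 6000 ppm, folpet 6000 ppm and folpet 16000 ppm. The number of Pdia probes called was 1 instead of 0 in captan 6000 ppm, captan 12000 ppm and folpet 6000 ppm with totals outside the acinar list, in captan 12000 ppm and folpet 6000 ppm with DESeq2 and in folpet 6000 ppm with limma-voom. In folpet 16000 ppm it was 0 instead of 1 with library totals, without the filter, with the acinar share, without the libraries over 50% acinar and with only the compared groups; leaving out a library gave 0 to 1 there and in folpet 6000 ppm. The cause was not tested. On the log2 scale the trypsin share differed by -4.47 in captan 6000 ppm (adjusted p = 0.0947, exact permutation) and by -1.04 in folpet 16000 ppm (adjusted p = 0.0631, exact permutation), and neither passed. Leaving out a library gave 0.507 to 0.817 points in Cr(VI), -0.0617 to -0.0412 in captan 6000 ppm, -0.0438 to -0.0226 in folpet 6000 ppm and -0.0505 to -0.02997 in folpet 16000 ppm. In the comparisons between exposed groups one member passed under 1 setting, Hyou1 in Cr(VI) against captan 12000 ppm with library totals (-0.81, adjusted p = 0.03, edgeR). That scaling moved the median of all probes in this comparison by -0.72, to -0.78, close to the value of Hyou1, and 8 probes were called higher and 496 lower. The number of all probes called ran over the alternatives from 14 to 240 in Cr(VI) (151 as reported), 29 to 254 in captan 6000 ppm (131), 29 to 313 in captan 12000 ppm (157), 51 to 304 in folpet 6000 ppm (158) and 57 to 575 in folpet 16000 ppm (320). Totals outside the acinar list turned the split of calls to 65 higher and 510 lower in folpet 16000 ppm, where 201 were higher and 119 lower.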
